A study of Homo sapiens with 12 samples.

Results

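TRAPP (transport protein particle) is a multisubunit tethering complex of the secretory pathway, and the RNA levels of 10 of its subunits were examined in HGC-27 cells, a human gastric cancer line. The 10 genes were TRAPPC1, TRAPPC2L, TRAPPC3, TRAPPC4, TRAPPC5, TRAPPC6A, TRAPPC6B, TRAPPC8, TRAPPC9 and TRAPPC10, taken by Ensembl identifier from a table of 20345 gene rows, and all 10 had a mean of at least 1 FPKM (fragments mapped to a gene, scaled by transcript length and by the mapped total of the library). TRAPPC5 was chosen by its higher level in libraries labelled TEAD4KO, so its values in those comparisons are given as a description without a test. The table held 12 samples in 4 groups of 3: WT cells left untreated, WT cells given GLUP, cells labelled TEAD4KO left untreated, and cells labelled TEAD4KO given GLUP. GLUP is a synthetic peptide designed to link TEAD4 molecules, and TEAD4 is a transcription factor through which the Hippo pathway acts on its target genes. All groups were HGC-27 cultures in the same medium, and the labels gave neither dose nor treatment time, nor whether the labelled knockout was 1 clone. The labels did not say whether the 3 samples of a group came from separate cultures, so p-values measure the spread between these samples only.

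TRAPP sits on Golgi and endosomal membranes, where it catches incoming vesicles and switches on Rab GTPases by exchanging their bound nucleotide. In mammals a shared core, built from TRAPPC1, TRAPPC2, TRAPPC2L, TRAPPC3, TRAPPC4, TRAPPC5 and TRAPPC6A or TRAPPC6B, is found in 2 larger assemblies. TRAPPII adds TRAPPC9 and TRAPPC10 and acts on RAB1 and RAB11 proteins, and TRAPPIII adds TRAPPC8, TRAPPC11, TRAPPC12 and TRAPPC13 and acts on RAB1 in early secretion and autophagy. TRAPPC5 is a structural core subunit of the Bet3 fold. By this division 7 of the 10 examined genes encode core subunits, while TRAPPC8, TRAPPC9 and TRAPPC10 belong to the larger assemblies.

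TRAPPC5 (ENSG00000181029) lies on chromosome 19 of GRCh37 at chr19:7745719-7752589, on the plus strand. The 250 bases before its RefSeq start are shown because TRAPPC5 is the subunit whose level differed most, with capitals marking the single GC box. They match GRCh37 once, at chr19:7745469-7745718 on the plus strand.
TRAPPC5: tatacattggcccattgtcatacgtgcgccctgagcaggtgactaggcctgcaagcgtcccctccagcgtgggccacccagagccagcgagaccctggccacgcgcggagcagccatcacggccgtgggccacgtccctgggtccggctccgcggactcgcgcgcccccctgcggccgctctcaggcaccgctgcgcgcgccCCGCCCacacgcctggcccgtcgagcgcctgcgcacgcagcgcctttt
This window was 72.8% G and C, above 85.3% of the 35116 RefSeq promoter windows of the same length, whose median was 58.0%. The TEAD core motif GGAATG, searched on both strands with its reverse complement CATTCC, had no match in it. Of all the windows, 11.9% held that motif. Windows were given for 8 of the 10 subunits, and 0 of the 8 held the TEAD motif. The GC box GGGCGG, searched with its reverse complement CCGCCC, was present in 7 of these 8 and in 42.6% of all windows. The windows of these 8 subunits ran from 61.2% G and C for TRAPPC6B to 78.4% for TRAPPC3. All lay above the median of 58.0%, so the 42.6% comes from windows of lower GC content. These matches describe letters in a window and say nothing of whether a factor binds there.

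The summed FPKM per sample ranged from 375361 to 423757, and the sequencing depth is unknown because the files hold no counts. The RNA of the targeted gene was not lower with its label, and an RNA level cannot show whether the protein was lost. TEAD4 measured 24.4 to 25.8 FPKM in untreated WT libraries and 27.2 to 30.1 in untreated libraries labelled TEAD4KO, and 22.9 to 23.8 and 26.0 to 29.4 with GLUP, so "TEAD4KO" is used below as a label only. On the log2(FPKM + 1) scale the fitted TEAD4 differences were 0.17 ± 0.06 (SE) untreated and 0.23 ± 0.06 with GLUP (adjusted p = 0.135 and 0.0479, limma). After a correction for GC content and length with canonical transcripts, described below, they were 0.01 ± 0.06 and 0.11 ± 0.06 (adjusted p = 0.955 and 0.271, limma). The markers of the line were uneven. VIM, a mesenchymal filament gene, was at 1238 to 1704 FPKM, and the epithelial genes KRT8 and CDH1 were at 3.78 to 9.13 and 2.04 to 3.68, while KRT18, KRT19 and EPCAM did not exceed 0.290 FPKM in any sample. Of 7 markers of other cell types, 6 had a row (PECAM1 did not): CD3E was at 0 in all samples, PTPRC and VWF did not exceed 0.276, and the fibroblast genes COL1A1, DCN and LUM reached 155 to 304, 55.1 to 77.6 and 48.6 to 64.5 FPKM. The TEAD4KO-label differences of these 3 fibroblast genes lay between -0.35 and 0.16 on the log2 scale. In the test 0 of 3 passed, beside 5.42% of all rows untreated and 5.84% with GLUP. Of the line's own markers, KRT8 differed by 0.48 ± 0.14 untreated (adjusted p = 0.0674, limma), without overlap, and 0.14 ± 0.14 with GLUP. VIM differed by 0.19 ± 0.09 and 0.27 ± 0.09 (adjusted p = 0.227 and 0.0818, limma), without overlap in either treatment, and CDH1 by -0.08 ± 0.11 and 0.13 ± 0.11. Of all rows, 25.7% were without overlap untreated and 29.5% with GLUP. The part of these markers in the results was not tested.

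In untreated WT cells 5 core subunits were the most abundant of the 10 transcripts and the TRAPPII subunit TRAPPC9 the least abundant. TRAPPC3, a core subunit with a lipid-binding pocket, led with 70.1 ± 1.81 FPKM (SD, n = 3). It was followed by TRAPPC1, a small longin-fold subunit that contacts the Rab, at 46.8 ± 1.92, and by TRAPPC4, which also contacts the Rab, at 27.3 ± 0.229. These 3 genes did not overlap each other in any sample of the group. TRAPPC5 came next at 22.4 ± 2.14 FPKM and overlapped TRAPPC2L, a core subunit related to the sedlin protein TRAPPC2, at 21.1 ± 0.874. TRAPPC10, the large TRAPPII scaffold subunit, and TRAPPC8, the large TRAPPIII subunit, measured 10.6 ± 0.509 and 10.1 ± 0.549, and their ranges overlapped. TRAPPC6B, at 6.20 ± 0.343, exceeded its paralogue TRAPPC6A, at 3.69 ± 0.553, without overlap. TRAPPC9, the other TRAPPII subunit, stood at 1.90 ± 0.108. FPKM is scaled by transcript length, and the lengths that the authors used are not given, which affects this order for TRAPPC5 in particular.

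Among the TRAPP genes outside the 10, TRAPPC12 was at 18.9 ± 1.10 FPKM in untreated WT cells and did not overlap its neighbours in the order. TRAPPC14, TRAPPC11 and TRAPPC13 followed at 10.3 ± 0.258, 8.83 ± 0.248 and 6.48 ± 0.540. TRAPPC2B and TRAPPC2, near-identical copies between which reads may be split, measured 4.05 ± 0.732 and 2.83 ± 0.465. TRAPPC3L, a paralogue of TRAPPC3, did not exceed 0.0190 FPKM in any of the 12 samples.

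The first comparison asked how TRAPP transcripts differed between libraries labelled TEAD4KO and WT libraries. TRAPPC5 was higher with the label in both treatments, while none of the other 9 subunits passed the test. TRAPPC5 measured 23.2, 24.0 and 19.9 FPKM in untreated WT samples 1 to 3 and 39.2, 42.2 and 37.9 in the untreated samples labelled TEAD4KO. With GLUP it measured 17.0, 18.1 and 17.0 FPKM in WT samples 14 to 16 and 42.6, 42.7 and 29.9 in the samples labelled TEAD4KO. Every sample with the label exceeded every WT sample, and the lowest of the labelled samples was replicate 16 of the GLUP group. As these are bulk samples, more cells with the transcript and more transcript per cell cannot be told apart.

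**Figure D1:**
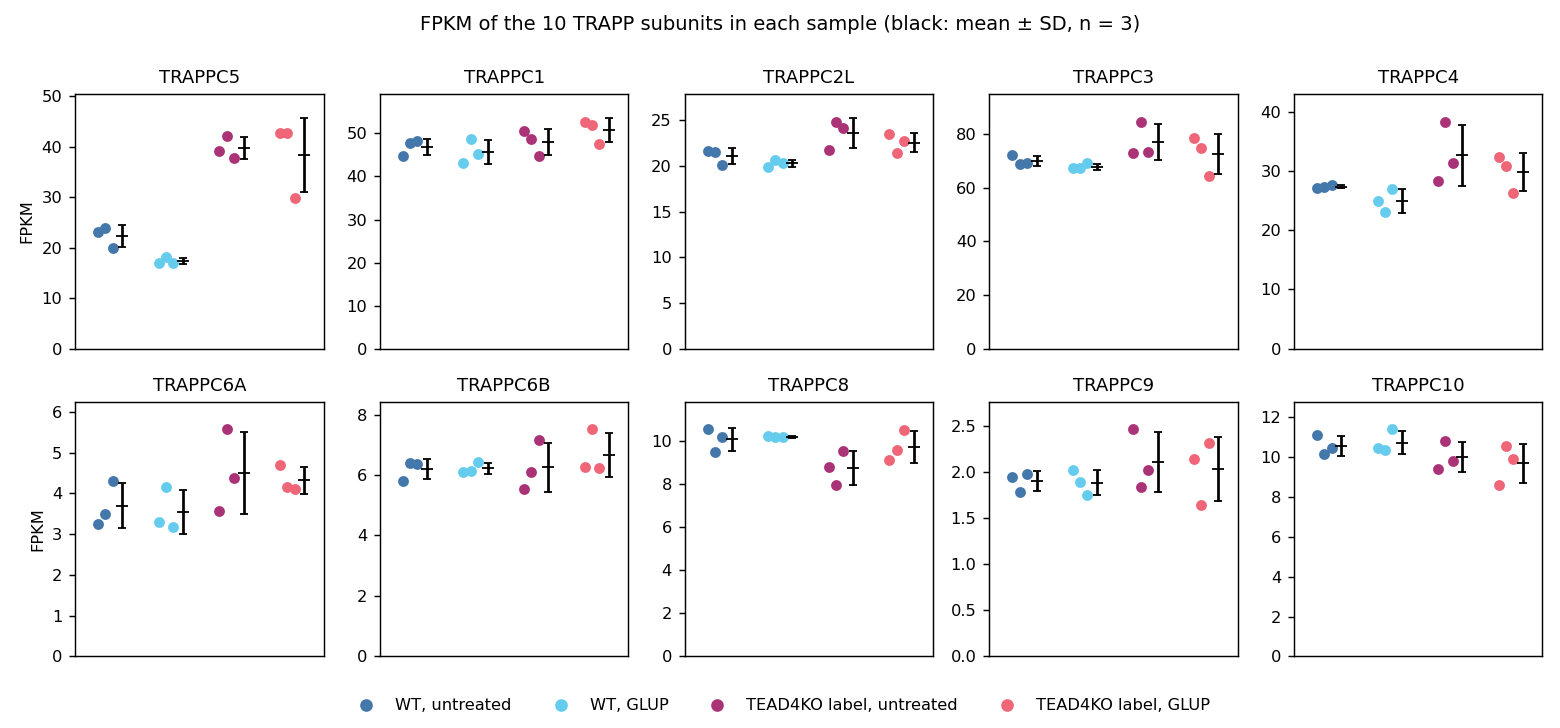
FPKM of the 10 TRAPP subunits, 1 panel per gene with its own axis from 0; points are the 12 samples coloured by group, and black marks are the mean ± SD of 3 samples. TRAPPC5 is the only panel in which all 6 samples labelled TEAD4KO, from 29.9 to 42.7 FPKM, lie above all 6 WT samples, from 17.0 to 24.0.

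The ratio of group means of TRAPPC5 was 1.78 in untreated cells (39.8 ± 2.23 against 22.4 ± 2.14 FPKM) and 2.21 with GLUP (38.4 ± 7.35 against 17.4 ± 0.624). On the log2(FPKM + 1) scale the fitted differences were 0.81 ± 0.12 (SE) and 1.08 ± 0.12. By size this was the 14th highest difference of 11225 rows in untreated cells and the 8th highest with GLUP, and with GLUP it just exceeded a fold of 2. C1orf122, at 1.11, lay next above it among the rows past the test, and TPGS1, at 0.99, was the next below and just outside that fold. TRAPPC5 kept its place among the 10 subunits only in part: it ranked 4th in untreated WT, 5th in WT with GLUP and 3rd in both groups with the label, where it passed TRAPPC4.

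At an adjusted p under 0.05 (limma with Benjamini-Hochberg adjustment over all rows), 1 of 10 subunits passed in untreated cells, beside 5.42% of all rows tested, and 1 of 10 with GLUP, beside 5.84%. Both were TRAPPC5, which the choice of genes fixed. The shares of all rows depended on single libraries. They ran from 1.06% (without untreated WT replicate 3) to 10.6% (without untreated labelled replicate 1) in untreated cells, and from 1.75% (without WT GLUP replicate 16) to 17.4% (without labelled GLUP replicate 16) with GLUP. With a fold over 2 as well, 0 of 10 passed in untreated cells, beside 0.0356% of all rows, and 1 of 10, TRAPPC5, with GLUP, beside 0.0535%. For the other 9 the median difference was 0.09 on the log2 scale in both treatments, with 7 higher and 2 lower in each, beside a median of 0.02 and 0.00 over all rows. Their adjusted p (limma) ran from 0.186 to 0.977 in untreated cells and from 0.171 to 0.751 with GLUP. At an unadjusted p under 0.05, 3 of the 9 were counted in each treatment (TRAPPC4, TRAPPC2L and TRAPPC8 untreated, and TRAPPC4, TRAPPC2L and TRAPPC1 with GLUP), beside 21.7% and 23.9% of all rows.

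Of these 9, the core subunit TRAPPC4 had the largest difference. It measured 27.1, 27.3 and 27.6 FPKM in untreated WT samples and 28.3, 38.3 and 31.4 with the label, a difference of 0.24 ± 0.10 (adjusted p = 0.196, limma). With GLUP it measured 24.9, 23.0 and 27.0 FPKM against 32.3, 30.8 and 26.3, a difference of 0.24 ± 0.10 (adjusted p = 0.171, limma). The untreated groups did not overlap, whereas with GLUP replicate 16 of the labelled group fell inside the WT range. Without that replicate the TRAPPC4 difference was 0.33 and passed the test, so that 2 of 10 subunits passed, beside 17.4% of all rows in that fit.

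TRAPPC2L did not overlap between the groups in either treatment, yet its differences were small. It measured 21.6, 21.6 and 20.1 FPKM in untreated WT samples against 21.8, 24.9 and 24.2 with the label (0.16 ± 0.07, adjusted p = 0.186, limma), and 19.9, 20.7 and 20.3 against 23.5, 21.5 and 22.7 with GLUP (0.14 ± 0.07, adjusted p = 0.200, limma). TRAPPC3 measured 72.2, 68.9 and 69.2 FPKM in untreated WT samples and 73.1, 84.7 and 73.3 with the label, and its difference of 0.13 ± 0.08 rested most on the sample at 84.7. In all, 4 of 10 subunits had untreated groups that did not overlap, TRAPPC2L, TRAPPC3, TRAPPC4 and TRAPPC5, each higher with the label, beside 25.7% of all rows in either direction. With GLUP there were 2 of 10, TRAPPC2L and TRAPPC5, beside 29.5%.

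The subunits of the larger assemblies had differences of either sign. TRAPPC8 measured 10.5, 9.46 and 10.2 FPKM in untreated WT samples and 8.76, 7.96 and 9.52 with the label, a difference of -0.18 ± 0.08 (adjusted p = 0.199, limma), and -0.06 ± 0.08 with GLUP. TRAPPC10 had differences of -0.07 ± 0.08 and -0.14 ± 0.08, and TRAPPC9 of 0.09 ± 0.11 and 0.07 ± 0.11, and the ranges overlapped in all 4 cases. Of the remaining core subunits, TRAPPC1 differed by 0.03 ± 0.07 and 0.15 ± 0.07, although the untreated value was -0.05 after quantile normalization. TRAPPC6A differed by 0.22 ± 0.14 and 0.23 ± 0.14, and TRAPPC6B by 0.01 ± 0.10 and 0.08 ± 0.10, the first of which was -0.01 after median-ratio scaling. TRAPPC6A lies wholly inside MARK4 on the opposite strand, and whether reads were counted by strand is not given, so its value may include MARK4 reads. TRAPPC1, TRAPPC2L, TRAPPC3 and TRAPPC4 overlap protein-coding genes on the opposite strand over part of their length. The most abundant of these was MAP7D1, over TRAPPC3, at up to 64.3 FPKM. TRAPPC6B, TRAPPC8, TRAPPC9 and TRAPPC10 overlap opposite-strand genes of other types, such as noncoding RNA genes and pseudogenes.

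**Figure D2:**
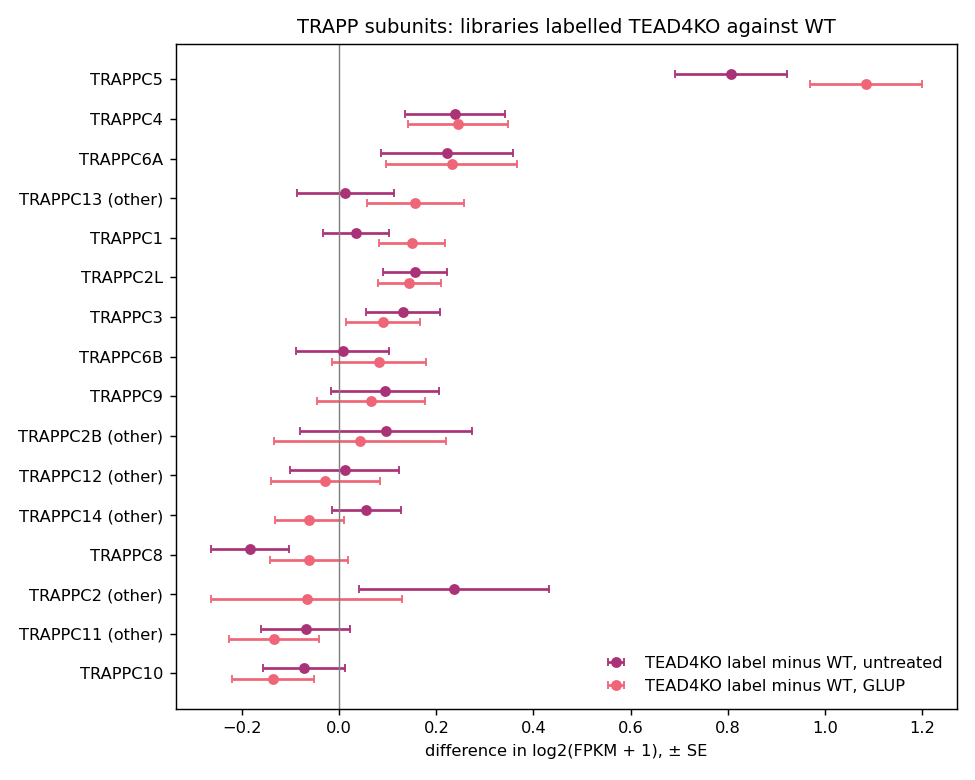
Difference in log2(FPKM + 1) between libraries labelled TEAD4KO and WT for the 10 subunits and for 6 other TRAPP genes (marked other) that reached a mean of 1 FPKM; points are fitted differences and bars their SE, in untreated cells and with GLUP. TRAPPC5 stands at 0.81 and 1.08, and the other genes lie between -0.18 and 0.24.

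Set against its own complex, TRAPPC5 was higher with the label in every sample. The measure was log2(FPKM + 1) of TRAPPC5 minus the median of the other 9 subunits in the same sample. It was 0.99, 1.16 and 0.87 in untreated WT samples and 0.66, 0.75 and 0.54 in WT samples with GLUP. With the label it was 1.95, 1.87 and 1.85 untreated and 2.11, 1.92 and 1.43 with GLUP. The label groups exceeded the WT groups by 0.88 in untreated cells and 1.17 with GLUP, as a description, since this measure contains the values that chose TRAPPC5. Of the other subunits, 7 have a mean of at least 5 FPKM, and with the median over those alone the differences were 0.65 and 0.94.

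**Figure D3:**
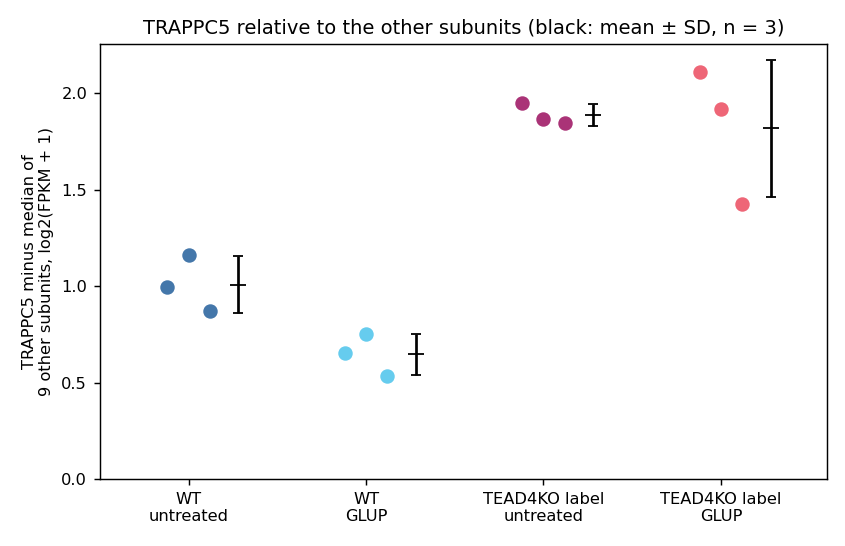
TRAPPC5 minus the median of the 9 other subunits, on the log2(FPKM + 1) scale, in each of 12 samples; coloured points are samples and black marks the mean ± SD of 3. WT samples lie between 0.54 and 1.16, and samples labelled TEAD4KO between 1.43 and 2.11.

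The second comparison asked whether GLUP changed these transcripts. None of the 10 subunits passed the test in either background. In WT cells TRAPPC5 had a mean of 22.4 FPKM untreated and 17.4 with GLUP, a difference of -0.34 ± 0.12 (adjusted p = 0.999, limma), and the groups did not overlap. These WT libraries are also those of the comparisons that chose TRAPPC5, so this value is not independent of the choice. TRAPPC4 had a difference of -0.13 ± 0.10 and its WT groups did not overlap either. The 2 of 10 subunits without overlap stood beside 17.3% of all rows. The share of rows past the test was 0.00891% in WT cells, so few features of any kind passed. When samples were weighted by their variability, TRAPPC5 did pass in WT cells with a difference of -0.34 (adjusted p = 0.0432, limma with array weights), beside 0.543% of all rows in that fit. This fit too uses the WT libraries on which TRAPPC5 was chosen.

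In cells labelled TEAD4KO the GLUP difference of TRAPPC5 was -0.06 ± 0.12 (adjusted p = 0.973, limma), from 39.8 to 38.4 FPKM. It was 0.10 without replicate 16 of the labelled GLUP group, which alone was low at 29.9 FPKM. The groups overlapped for all 10 subunits, so that 0 of 10 were without overlap, beside 6.83% of all rows, and 0 of 10 passed the test, beside 0.0445%. The differences of the other 9 ran from -0.12 for TRAPPC4 to 0.14 for TRAPPC8. The difference between the GLUP responses of the 2 backgrounds was 0.28 ± 0.16 for TRAPPC5 (adjusted p = 0.9998, limma). It is the gap between the 2 label differences that chose TRAPPC5, so it is not independent of the choice. The GLUP difference of TRAPPC5 in labelled cells uses those libraries too. None of the 10 passed the test of the difference of responses, beside 0.00891% of all rows. At an unadjusted p under 0.05, 1 of 10 subunits, TRAPPC5, was counted for GLUP in WT cells beside 3.43% of all rows. There were 0 of 10 in labelled cells, beside 6.38%, and 0 of 10 for the difference of responses, beside 2.53%.

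The differences with the TEAD4KO label moved with the GC content and length of transcripts over the whole table, and 3 of the 4 annotated TRAPPC5 transcripts are short and GC-rich. Rows with a canonical transcript under 1500 bases and over 60% G and C numbered 355. Their median difference was 0.33 in untreated cells and 0.30 with GLUP, and 35.2% and 37.7% of them passed the test, beside 5.42% and 5.84% of all rows. Rows of 1500 bases or more with 40 to 45% G and C had medians of -0.02 and -0.03.

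The annotation gives TRAPPC5 4 transcripts that differ mainly in length. The canonical one has 5508 bases and 56.0% G and C, and the others have 790, 765 and 411 bases with 69.9%, 70.2% and 67.2%. The transcript of 790 bases would be shorter than all but 3.3% of rows tested and richer in G and C than 99.6% of them. Of the 355 short GC-rich rows, 6 had a difference above that of TRAPPC5 in untreated cells and 2 with GLUP. By its canonical transcript TRAPPC5 is not in that class, and these ranks rest on the values that chose it.

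How much of the TRAPPC5 difference remained after a correction for GC content and length depended on the transcript used. With the canonical transcripts it was 0.85 and 1.17. With medians over all transcripts of each gene it was 0.47 and 0.82, and with the transcript of 790 bases for TRAPPC5 it was 0.35 and 0.69, a fold of 1.27 and 1.61. Under these latter corrections, added after the data were seen, 0 of 10 subunits lay past the test in untreated cells, beside 1.21% and 1.74% of all rows, and TRAPPC5 alone did with GLUP, beside 3.79% and 3.74%. TRAPPC5 was chosen on these comparisons, so nothing is read from these counts. Which transcript the cells use cannot be read from a table of gene values. For the other subunits the correction with canonical transcripts left small values: 0.12 and 0.15 for TRAPPC4, 0.07 and 0.10 for TRAPPC2L, and 0.00 and -0.01 for TRAPPC3. TRAPPC1 and TRAPPC6A, which have transcripts of 812 and 758 bases, turned to -0.17 and -0.02 and to -0.06 and -0.01.

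**Figure D4:**
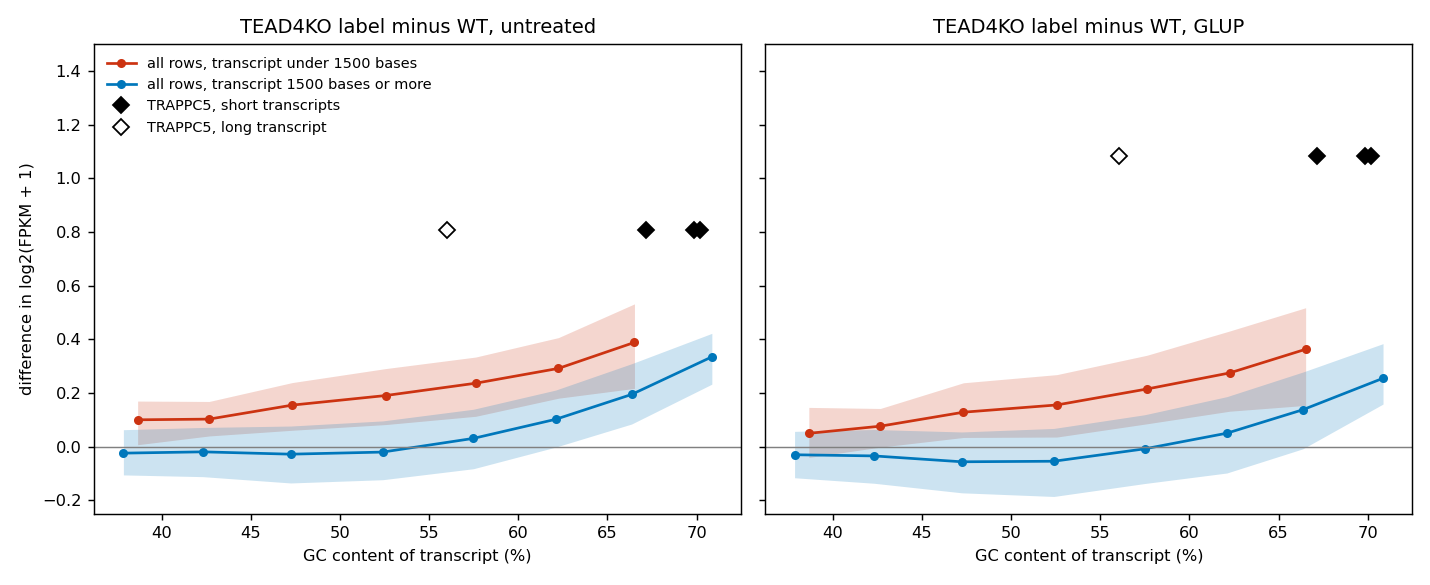
Median difference in log2(FPKM + 1) between libraries labelled TEAD4KO and WT (lines, with shaded quartiles) against GC content of the canonical transcript, in classes of at least 20 rows, for transcripts under 1500 bases and for longer ones; diamonds place the TRAPPC5 difference at the GC content of each of its 4 transcripts. The medians are higher for short and for GC-rich rows, and TRAPPC5, at 0.81 and 1.08, lies above the upper quartile of every class drawn. Short transcripts of 70% G and C or more were too few to be drawn, and the TRAPPC5 transcript of 765 bases, at 70.2%, falls there.

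Other genes of the pathway around TRAPP were compared between labels in the same way, beside 5.42% of all rows past the test in untreated cells and 5.84% with GLUP, and 21.7% and 23.9% at an unadjusted p under 0.05. Of 6 other TRAPP genes tested, 0 passed in either treatment, and 0 had an unadjusted p under 0.05 (limma), with median differences of 0.03 in untreated cells and -0.05 with GLUP. TRAPPC12, TRAPPC13, TRAPPC11 and TRAPPC14 differed by -0.13 to 0.16, and TRAPPC2 and TRAPPC2B by -0.07 to 0.24. A further 21 genes were RAB1 and RAB11 GTPases, Golgi tethers, SNAREs, and other genes of Rab regulation and Golgi traffic. Of these 21, 0 passed, although 5 untreated and 8 with GLUP had an unadjusted p under 0.05 (limma). Their median differences were 0.03 and -0.01. The COPII coat buds the vesicles that TRAPPIII receives. Of 16 genes of this coat and of factors that work with it, 0 passed and 2 had an unadjusted p under 0.05 in each treatment. Their median differences were -0.05 and -0.07. Of 25 genes of other tethering complexes, 0 passed in untreated cells, where 4 had an unadjusted p under 0.05, and 2 were higher with GLUP. ZW10, a subunit of the NRZ tether at the endoplasmic reticulum, differed by 0.33 ± 0.09 (adjusted p = 0.0392, limma), and VPS51, a subunit of the GARP and EARP tethers, by 0.43 ± 0.11 (adjusted p = 0.0310, limma). After the GC and length correction ZW10 was at 0.35 with GLUP and still passed, beside 3.8% of all rows in that fit. VPS51 was at 0.30 and did not pass. These 2 genes were also higher with the label in untreated cells, though neither passed there. Untreated, ZW10 averaged 12.6 FPKM in WT and 15.8 with the label, and VPS51 averaged 31.3 and 38.9. For GLUP, 0 genes of these 4 lists passed in WT cells, beside 0.00891% of all rows, and 0 in labelled cells, beside 0.0445%. In the test of the difference of responses 0 passed, beside 0.00891%. At an unadjusted p under 0.05 (limma) there was 1 in WT cells, beside 3.43% of all rows, and 1 in labelled cells, beside 6.38%. For the difference of responses there were 0, beside 2.53%.

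Genes close to TRAPPC5 on chromosome 19 were described in the same way. Within 500 kb, 15 rows were tested. In untreated cells 2 of the 15 were higher with the label, beside 5.42% of all rows in either direction, CTXN1 by 0.78 ± 0.10 and TIMM44, an import factor of the mitochondrial matrix, by 0.33 ± 0.08 (adjusted p = 0.00221 and 0.0346, limma). With GLUP CTXN1 was higher by 0.69 ± 0.10 (adjusted p = 0.00286) and INSR, the insulin receptor gene, lower, at -0.46 ± 0.12 (adjusted p = 0.0353, limma), beside 5.84%. After the GC and length correction 0 of 15 passed in either treatment, beside 1.75% of all rows untreated and 3.8% with GLUP in that fit. CTXN1 was then at 0.27 and 0.26, TIMM44 at 0.20 untreated and INSR at -0.30 with GLUP. The nearest rows tested, PET100 at 48.9 kb and XAB2 at 51.3 kb upstream, differed by -0.10 ± 0.17 and 0.19 ± 0.08 in untreated cells and by -0.07 ± 0.17 and 0.23 ± 0.08 with GLUP, and neither passed. A gene on the same strand whose span overlaps that of TRAPPC5 was listed at 0 in 11 of 12 samples.

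The rows most like TRAPPC5 over the 12 samples were not TRAPP subunits. By Pearson's r on log2(FPKM + 1), given as a description over 12 samples that share the difference between labels, they were RBM42 (0.987), CTAG2 (0.985), TAF10 (0.985), ABHD17A (0.985) and MIF (0.985). Of these, RBM42, CTAG2, ABHD17A and MIF have canonical transcripts with over 60% G and C. After the GC and length correction with canonical transcripts the 5 were SURF6, TAF10, WIZ, GSTP1 and EPN1, with r from 0.985 to 0.988. TAF10 alone was in both groups of 5. Among the subunits r was 0.81 for TRAPPC2L, 0.79 for TRAPPC4 and 0.71 for TRAPPC3, followed by 0.63 for TRAPPC1 and 0.61 for TRAPPC6A. It was 0.23 for TRAPPC6B and 0.22 for TRAPPC9, and below 0 for TRAPPC10 (-0.53) and TRAPPC8 (-0.71). This order depended on the correction. After it, r was 0.78 for TRAPPC9, 0.68 for TRAPPC4, 0.65 for TRAPPC2L, 0.39 for TRAPPC6B, 0.22 for TRAPPC10 and 0.21 for TRAPPC3, and below 0 for TRAPPC6A (-0.09), TRAPPC8 (-0.42) and TRAPPC1 (-0.54).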

How the data were processed

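RNA-seq of 12 HGC-27 samples in 4 groups of 3 was analysed from FPKM values that the authors deposited per sample and Ensembl gene. The submitters' processing notes name HISAT2, Cufflinks, RSEM and hg19; their versions, roles and strand setting are not given in the sources used here. FPKM holds no counts, so no counting error could be given. Rows whose mean reached 1 FPKM, 11225 in number, were put on the log2(FPKM + 1) scale. The groups were fitted together by limma (version 3.58.1, under R version 4.3.3; lmFit and trended eBayes), with Benjamini-Hochberg adjustment over all rows. A pass is an adjusted p under 0.05. Fold changes on this scale understate those of low genes. The fit was tested on simulated data.

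The members, lists and tests were chosen with earlier results of these data known. All subunits were named. Of further lists, genes past the test were named, at most 3 per list and comparison, and as most like TRAPPC5 the 5 rows of highest r. TEAD4 was named as the targeted gene. C1orf122 and TPGS1, next to TRAPPC5 at the fold limit, and the neighbours PET100 and XAB2 were named after their values were seen.

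Deviations from group means were correlated between WT and labelled samples. With GLUP, matched numbers 14 to 16 gave r = 0.11, 0.15 and 0.34, and the unmatched numbers 14 and 15 gave 0.13 and 0.12. In untreated samples, matched numbers 1 to 3 gave -0.06, 0.20 and -0.01, and WT 3 with labelled 1 gave 0.18. Other unmatched pairs were lower, down to -0.25 with GLUP and -0.19 untreated. The highest r was that of number 16. Alternatives changed the pseudocount (0.1), filter (none, or 5 FPKM), scaling, variance trend, sample weights, samples fitted, replicate block and single samples. Another corrected each sample for GC content and length by splines with 5 degrees of freedom. Transcripts and coordinates came from GENCODE on GRCh37, and promoters from RefSeq on GRCh38.p14.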

Additional observations from a re-analysis of the deposited data

How the results depend on the processing

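With 3 samples a group and unknown depth, precision rests on the replicate spread. With the replicate block 1 of 10 subunits passed in both label comparisons, as without it, beside 7.56% of all rows untreated and 9.48% with GLUP. That subunit was TRAPPC5, which the choice of genes fixed. In the difference of responses 0 of 10 passed with the block, beside 0.00891%. In the GLUP comparisons the numbers are not shared, so no block could be fitted. The cause of each change below was not tested.

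Array weights brought the subunits past the test to 2 for the label with GLUP (TRAPPC4 and TRAPPC5), beside 22.2% of all rows, and to 1 for GLUP in WT cells (TRAPPC5), beside 0.543%. Leaving out single samples gave 1 to 2 subunits for the label with GLUP, beside 1.75% to 17.4% of all rows. For the label in untreated cells it gave 1, beside 1.06% to 10.6%. TRAPPC5 was always among them, which the choice of genes fixed. Its differences were 0.73 to 0.86 untreated and 1.00 to 1.25 with GLUP, the latter highest without TEAD4KO-labelled GLUP replicate 16. The GC and length correction by median transcripts or by the short TRAPPC5 transcript was chosen after seeing the data. Under it 0 subunits passed in untreated cells, beside 1.21% or 1.74% of all rows. TRAPPC5 differed by 0.47 or 0.35 untreated and 0.82 or 0.69 with GLUP. Relative to the other subunits it differed by 0.56 or 0.33 and 0.88 or 0.65. With a filter at 5 FPKM that relative measure was 0.65 and 0.94.

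Some values near 0 changed sign. For GLUP in labelled cells TRAPPC5 was 0.0406 with array weights, 0.0276 with median transcripts, 0.0451 with its short transcript, and -0.15 to 0.10 over left-out samples. Quantile normalization gave -0.0456 for TRAPPC1 untreated and -0.0170 for TRAPPC3 with GLUP, and median-ratio scaling -0.0119 for TRAPPC6B untreated. The GC and length correction, alone and with the replicate block (and, in brackets, with the short TRAPPC5 transcript), gave -0.172 (-0.172) untreated and -0.0228 (-0.0227) with GLUP for TRAPPC1, -0.0146 (-0.0149) with GLUP for TRAPPC3, -0.0641 (-0.0644) untreated and -0.0123 (-0.0129) with GLUP for TRAPPC6A, -0.0032 (-0.0033) untreated for TRAPPC6B, 0.0253 (0.0255) with GLUP for TRAPPC8 and 0.0197 (0.0199) untreated for TRAPPC10. With median transcripts TRAPPC1 was -0.0317 and TRAPPC6B -0.0170 untreated. Over left-out samples TRAPPC1 ran from -0.0029 to 0.0821 and TRAPPC6B from -0.0794 to 0.0805 untreated, and TRAPPC9 from -0.0014 to 0.162 with GLUP.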
